A study of Mus musculus with 8 samples.

Results

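Connective tissue fibroblasts of the mouse intervertebral disc at 10 days after birth (P10) were described from single-cell RNA counts. A cell was taken as a member when it had at least 1 unique molecular identifier (UMI) of Pdgfra and at least 10 UMIs summed over Dpt, Pi16, Clec3b, Ly6a, Cd34, Dpp4, Mfap5 and Col14a1. Cells were left out with 5 or more UMIs of Thbs4 and Tnmd, 3 or more of Pecam1 and Cdh5, 10 or more of Matn1, Matn3 and Cnmd, or 5 or more of Krt8. The rule found 57 of the 6999 P10 cells that passed the cell filters (0.814%, exact 95% Clopper-Pearson interval 0.617 to 1.05%), out of 13480 filtered cells at both ages. All groups carried Tagln-CreERt2;R26tdTomato, a Cre that becomes active with tamoxifen in cells expressing transgelin and that turns on a red fluorescent reporter. Tamoxifen was given at day 5 after birth (P5), and whole discs of lumbar levels L1 to L6 and tail levels T5 to T9 were taken at P10 or at 8 weeks, after muscle and vessels had been trimmed and blood washed away. GEO lists 4 samples for each age, but each age has 1 count matrix and no map from cells to samples, so each age was 1 library. Differences between ages therefore cannot be told apart from differences between libraries, and nothing was tested across conditions.

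Connective tissue fibroblasts make and remodel the loose collagenous matrix around vessels, nerves, muscles and joints, and the receptor PDGFRA marks them in many organs. In several mouse tissues, a population high in Pi16, Dpp4, Ly6a and Cd34 lies in the outer coat of vessels and in fascia, and is known as adventitial fibroblasts. It is set apart from parenchymal fibroblasts, which lie inside the tissue. In the disc, the outer annulus fibrosus is instead built by fibroblasts related to tendon cells, which express the transcription factor Scx and the membrane protein tenomodulin (Tnmd), and the inner annulus and end plates hold chondrocytes.

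The matrices held 143203550 UMIs in 7690 barcodes at P10 and 115097999 UMIs in 7597 barcodes at 8 weeks. The median depth after filtering was 18300 UMIs per P10 cell and 14844 per 8-week cell. The 57 members held 583866 UMIs, with a lowest value of 1796, a median of 9721 and a highest value of 20159 per cell. Their depth was below that of the tendon-like cells (910 cells, median 14238 UMIs, chosen by Thbs4 and Tnmd) and of the chondrocytes (4524 cells, median 20222 UMIs, chosen by Matn1, Matn3 and Cnmd). The libraries shared 12 cell barcodes, 1 of them that of a P10 member. Of the members, 0 had a Scrublet doublet score over 0.25, and their highest score was 0.133. Levels are given as counts per 1000000 gene UMIs of a class (CPM), and ratios as log2 of CPM with exact intervals, all of which cover counting error only.

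Members were selected on the genes of the rule, so their values are a description. Pdgfra ranged from 1 to 12 UMIs per cell with a median of 3. The summed score of the 8 genes ranged from 10 to 308 UMIs with a median of 50, and 31 members had 40 or more. Just inside the limit, 10 members had a sum of 10 to 14. Just outside it, 4 cells with Pdgfra and under the limits on the other classes' markers had a sum of 5 to 9. A further 52 cells under those limits had a sum of 10 or more but 0 UMIs of Pdgfra. The number of members thus also depended on the limit of 1 UMI of Pdgfra. Mfap5, a microfibril protein, was found in 53 of 57 cells with a median of 16 UMIs and a highest value of 85. Cd34, a surface sialomucin, was found in 55 cells (median 7, highest 37), and Clec3b, which encodes tetranectin, in 50 (median 5, highest 32). Col14a1, a collagen that associates with fibrils, was found in 49 cells (median 4, highest 23), Ly6a, the surface antigen Sca-1, in 44 (median 5, highest 62), and Dpt, the matrix protein dermatopontin, in 42 (median 5, highest 20). These 6 genes were thus spread over most members. The other 2 genes of the sum were not. Pi16, a peptidase inhibitor, had a lowest value of 0, a median of 1 and a highest value of 113 UMIs, and 5 cells held 51.7% of its 920 UMIs. Dpp4, a cell-surface peptidase, had 37 UMIs in 15 cells with at most 5 in a cell. The plot of UMIs per cell shows the split in Pi16.

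**Figure D1:**
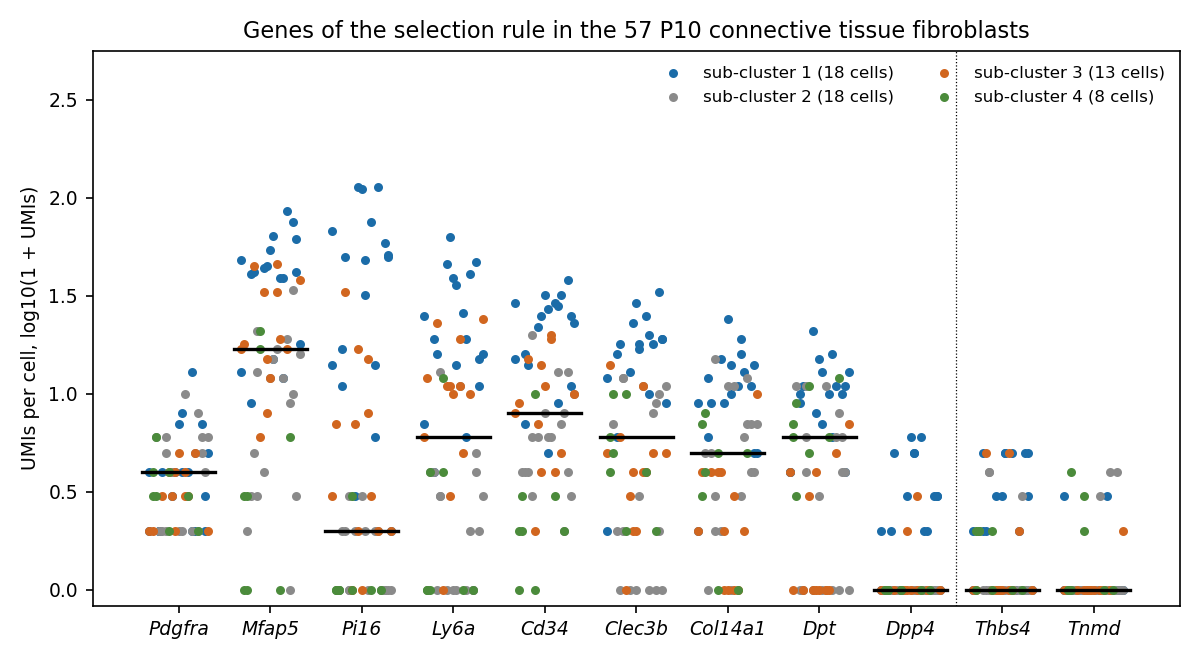
UMIs per cell, as log10 of 1 plus the count, of the genes of the selection rule in the 57 P10 members. Each point is a cell, coloured by sub-cluster, and black lines are medians. Pi16 has a median of 1 UMI and reaches 113, while the left-out markers Thbs4 and Tnmd stay under 5 UMIs summed.

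Because shares of cells with a UMI depend on depth, each cell was also thinned to 2000 UMIs. Pi16 then had a UMI in 26 of 56 members (46.4%, interval 33.0 to 60.3%, 1 shallower cell left out), against 66.7% at full depth. The thinned share was 3.98% of 905 tendon-like cells and 0.155% of 4522 chondrocytes. Blood cells, which should lack the gene, had 4.55% (2 of 44 cells, leaving out 1 blood cell that also carried fibroblast genes, a choice made after its values were seen).

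Markers of endothelial, blood, Schwann, mural, nucleus pulposus and cartilage cells were low in the members. Pecam1, Kdr, Emcn, Cldn5, Tie1 and Egfl7 of endothelium were at 0 UMIs, and Cdh5 had 1 UMI. The 10 endothelial markers summed to 71.9 CPM in members and 6913 CPM in endothelial cells, and 37 of the 42 UMIs in members came from Tek, an angiopoietin receptor, in 13 cells. Ptprc, Csf1r, Lyz2 and C1qa of blood cells were at 0. The 13 myeloid and lymphoid markers summed to 15.4 CPM, against 65265 CPM in blood cells. Sox10 of Schwann cells was at 0, and the 10 Schwann cell markers summed to 54.8 CPM against 115710 CPM in Schwann cells. The 10 mural markers summed to 161 CPM against 9009 CPM in mural cells, with Myh11 at 0. Of the 11 nucleus pulposus markers, 5 were at 0 (Krt18, Shh, Foxa1, Foxa2 and Noto), and all 11 summed to 77.1 CPM against 31350 CPM in nucleus pulposus cells. The 9 chondrocyte markers summed to 896 CPM, below the 1326 CPM in blood cells, so this level is read as background. Matn1 was at 0, and Col2a1 was found in all 57 members at 677 CPM, against 931 CPM in blood cells and 71493 CPM in chondrocytes. Lists of related mesenchymal cells were not at that level. The 9 synovial lining markers, of which 3 (Has1, Tppp3 and Creb5) are also in the list of adventitial fibroblast genes, summed to 1466 CPM in members, 257 CPM in tendon-like cells and 172 CPM in blood cells, and 4 of 6 measured ones were at least 2-fold higher than in tendon-like cells with 0 lower (median log2 ratio 2.28). Prg4, lubricin, had 14 UMIs in 6 members, Clic5 had 2 UMIs and Htra4 0. The 14 meningeal fibroblast markers summed to 229.5 CPM in members, 100.4 CPM in tendon-like cells and 27.96 CPM in blood cells, with 6 of them at 0 in members (Slc6a13, Slc47a1, Slc22a6, Cldn11, Ptgds and Ranbp3l). Of these, 3 were measured against tendon-like cells with 1 higher (0.39), and 4 against chondrocytes with 3 higher and 1 lower (1.43). The 12 perineurial and endoneurial markers summed to 296 CPM in members, 985 CPM in tendon-like cells and 139.8 CPM in blood cells, with 3 of 6 higher and 2 lower than in tendon-like cells (0.18). The 18 adipogenic genes summed to 2338 CPM in members, 668 CPM in tendon-like cells and 4789 CPM in blood cells, with 5 of 8 higher and 1 lower than in tendon-like cells (1.76), while Pparg, Adipoq, Plin1, Cd36 and Klf15 were at 0. The part of these cell types in the results was not tested. The markers of connective tissue fibroblasts themselves (Pdgfra, Dpt, Pi16, Ly6a, Cd34 and Col14a1) were all used by the rule.

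The limit on Thbs4 and Tnmd removed most cells that passed the positive part of the rule. That part was passed by 181 cells; 112 exceeded the limit on Thbs4 and Tnmd, 23 that on cartilage genes, 3 the endothelial limit and 1 the Krt8 limit. The tendon limit alone removed 98 cells, and 40 of these had under 5 UMIs of Tnmd and were removed by Thbs4, which encodes the matrix protein thrombospondin 4. Around the limit, 9 members had 4 UMIs of Thbs4 and Tnmd, and 27 had 0, while 5 removed cells had 5 UMIs, 9 had 6 and 7 had 7. In the genes named next, the 40 cells were nearer to the members than to the remaining 812 tendon-like cells. The 40 cells had passed the positive part of the rule, so this was fixed in advance for its genes Pi16 and Mfap5. Pi16 was at 3781 CPM in the 40 cells, 1576 CPM in members and 11.4 CPM in the 812 cells. Mfap5 was at 3797, 2141 and 20.6 CPM, and Igfbp5, an insulin-like growth factor binding protein, at 1995, 1804 and 30.7 CPM. Col1a1, the main chain of collagen I, went the other way at 16836 CPM in the 40 cells, 14152 CPM in members and 85158 CPM in the 812 cells. Scx was at 4.74, 0 and 253 CPM. Igfbp5, Col1a1 and Scx are outside the rule, but low Tnmd also picked the 40 cells, so these values are a description. With the limit placed on Tnmd alone, an alternative chosen after these values were seen, the rule gave 97 cells (1.39% of P10 cells).

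Members were compared with the 910 P10 tendon-like cells, which include the 98 cells that passed every other part of the rule. Both sets were chosen partly by opposite limits on Thbs4 and Tnmd, so the contrast is a description of what else differed. Members were at least 2-fold higher in 1547 of 7727 genes whose UMIs added over both classes reached 100 (20%) and at least 2-fold lower in 710 (9.19%). The median log2 ratio over all these genes was 0.38, and tendon-like cells put a large share of their UMIs into a few matrix genes such as Col1a1 and Col1a2. With that median set to 0, 776 genes were higher and 1089 lower, so the share of higher among the called genes went from 68.5% to 41.6%. List medians are therefore read against 0.38. With each cell thinned to 2000 UMIs, 296 genes were higher and 297 lower by the same rule. Tendon-like cells held 14057671 UMIs against 583866 in members, so a gene could reach 100 UMIs through tendon-like cells alone, while a gene of low level that was higher in members could miss it.

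Without the 98 cells the counts were 1548 higher and 697 lower, but several genes high in members were further from the remaining 812 cells than the ratios against all 910 show. Myoc was at 10.1 CPM in the 812 cells (log2 ratio 7.21, against 5.34 with all 910), Igfbp5 at 30.7 (5.88, against 3.78), Igf1 at 32.4 (5.27, against 3.74) and Gsn at 274 CPM (4.62, against 3.85). Fbn1 was at 145 CPM in the 812 cells and 352 CPM in all 910, and Ebf1, a transcription factor, at 16.1 and 49.1 CPM. The median of adventitial fibroblast genes was 3.41 in place of 2.28, and that of basement membrane genes 3.20 in place of 2.54. That of complement genes was 1.07 in place of 2.77. A gene counts in a median only when its UMIs reach the minimum in that comparison, so medians with and without the 98 cells can cover different genes. The lower complement median therefore does not show that complement genes were nearer to the 812 cells. Ratios below are against all 910 cells.

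Collagens were divided between the classes. Of 14 measured fibrous collagen genes (17 listed), 3 were higher and 6 lower, with a median log2 ratio of -0.81. Col1a1 had a lowest value of 20, a median of 109 and a highest of 553 UMIs per member, and 10, 1199.5 and 6224 per tendon-like cell. Summed, that was 14152 against 80231 CPM (log2 ratio -2.50, interval -2.54 to -2.47), and the per-cell ranges overlapped. Col1a2, the other collagen I chain, had a ratio of -2.56. Col3a1, the collagen of loose and vascular connective tissue, went the opposite way. It had 18, 153 and 683 UMIs per member and 0, 22 and 855 per tendon-like cell, or 18667 against 3200 CPM (log2 ratio 2.54, interval 2.51 to 2.58). Col5a2, which joins collagen I fibrils, differed little at 0.12 (interval 0.04 to 0.21).

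The small proteoglycans that coat collagen fibrils were also divided, with 4 of 11 measured genes higher and 5 lower (median -0.99). Dcn, decorin, had 9, 49 and 223 UMIs per member and 0, 5 and 481 per tendon-like cell (log2 ratio 1.5), and Aspn and Lum were higher at 2.46 and 2.63. Bgn, biglycan, was lower at -2.17, and fibromodulin (Fmod) was at 32 UMIs in all members together against a median of 93.5 in a single tendon-like cell (log2 ratio -6.89, interval -7.43 to -6.39). Elastic fibre genes had 7 of 20 higher and 3 lower (median 0.36, close to that of all genes). Among them, fibrillin 1 (Fbn1) was at 2165 against 352 CPM (log2 ratio 2.62) and Ltbp4, which holds latent TGF-beta in the matrix, at 2.18, while Eln, elastin itself, was at 0.63.

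Basement membrane genes stood higher as a list: 9 of 12 measured genes (15 listed) were higher and 1 lower, with a median log2 ratio of 2.54. Nid1, which links laminin to collagen IV, was at 476 against 62.2 CPM (2.94), Col4a1 at 577 against 147 CPM (1.98), and Hspg2, perlecan, at 0.42. Adhesive glycoproteins were mixed, with 9 of 26 higher and 9 lower (median -0.37). Tnxb, tenascin X, had a median of 7 UMIs per member and 0 per tendon-like cell (log2 ratio 3.13), and Ecm1 a ratio of 2.86. Sparc, a collagen-binding glycoprotein of matrix-producing cells, was lower at -2.35. Of 28 measured proteases and inhibitors, 11 were higher and 5 lower (median 0.39). Serpinh1, the collagen chaperone, was at -0.71 and Pcolce, which helps to process procollagen, at -0.85, both less than 2-fold. Has1, which makes hyaluronan, was higher at 3.39, and Tnfaip6, which binds it, at 2.09.

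Tendon and ligament genes were lower in 14 of 17 measured genes and higher in 0 (median -2.97), and cartilage matrix genes were lower in 10 of 15 (median -2.90). Scx had 0 UMIs in members and 3288 in tendon-like cells, at least 45.5-fold lower in members (3 counts over the group as the floor). Wif1, a secreted Wnt inhibitor, had 1 UMI in members against 8705 (log2 ratio -8.50, interval -13.8 to -6.02), and Cilp2 had 3 against 11932 (-7.37). Spp1, osteopontin, had 5 UMIs in members (-6.93), and Chad, the adhesive protein chondroadherin, 12 (-6.00). Further genes low in members were Cox4i2, Cgref1, Clu, Rbp4, Acan and Fibin, with log2 ratios between -5.96 and -4.92. Both classes were chosen on this axis, so the counts describe the choice.

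Gelsolin (Gsn), which severs actin filaments and has a plasma form, was found in all 57 members with 4, 53 and 194 UMIs per cell, against 0, 4 and 127 in tendon-like cells (log2 ratio 3.85, interval 3.79 to 3.91). Igf1, insulin-like growth factor 1, had a median of 10 UMIs per member and 0 per tendon-like cell (3.74, interval 3.61 to 3.87), and was found in 53 members. Cygb, the fibroblast globin cytoglobin, was found in 48 members (3.99). These 3 genes were spread over the members. Myoc, the secreted glycoprotein myocilin, had the largest ratio by the nearer interval bound (1487 against 36.6 CPM, 5.34, interval 5.18 to 5.50) but was uneven, with 27 cells positive, a highest value of 180 UMIs and 67.5% of its 868 UMIs in 5 cells. Krtdap and Dmkn, known from the epidermis, had ratios of 5.38 and 5.25, and 70 of the 93 UMIs of Dmkn lay in 1 cell. Prlr, the prolactin receptor, was found in 23 members with at most 12 UMIs (5.10). Ackr1, a receptor that binds chemokines, Cadm3, an adhesion molecule, Tmem100, and the transcription factor Zeb2 lay between 4.00 and 4.31. The plot of log2 ratios over tendon-like cells gives all 24 genes.

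**Figure D2:**
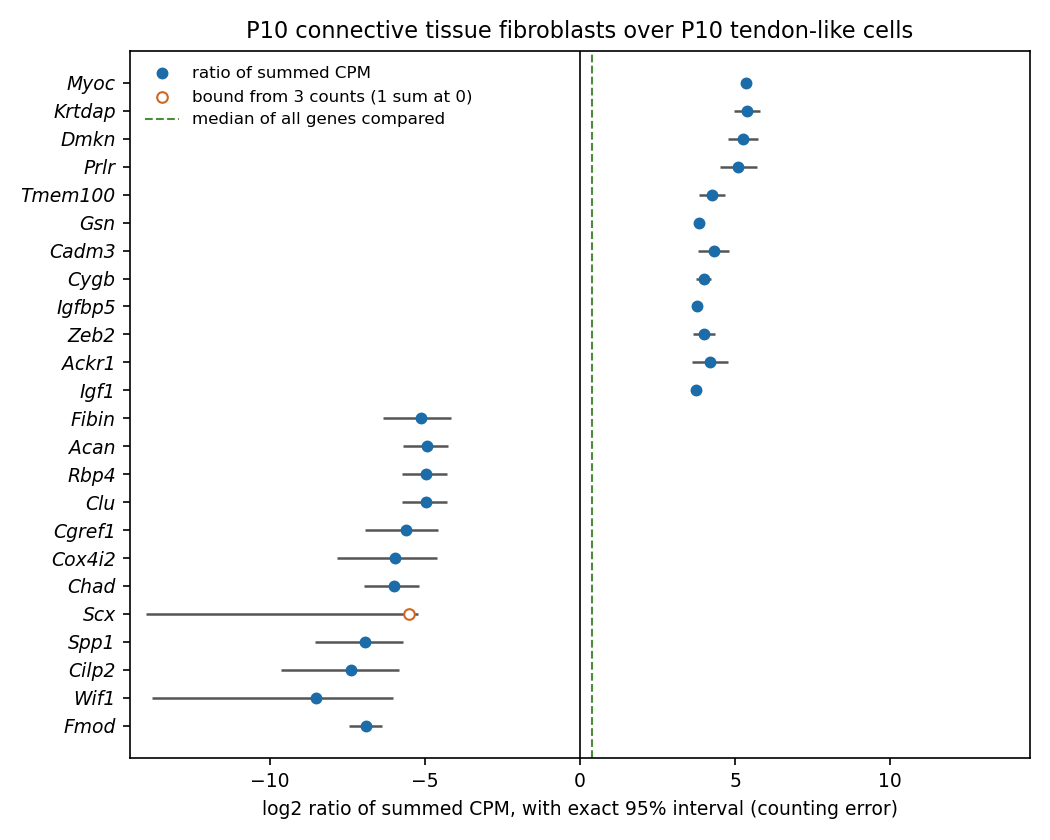
Log2 ratios of summed CPM in 57 P10 members over 910 P10 tendon-like cells for the 12 highest and 12 lowest named genes, with exact 95% intervals for counting error. Points run from 5.38 for Krtdap to -8.50 for Wif1, the open point for Scx is a bound from 3 counts, and the dashed line is the median of all genes at 0.38.

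Adventitial fibroblast genes outside the rule were higher in 16 of 20 measured genes and lower in 2 (25 listed, median 2.28). Igfbp6, which binds insulin-like growth factor 2, had a median of 9 UMIs and a highest of 226 per member and was at 2144 against 206 CPM (log2 ratio 3.38). Igfbp5 also had a median of 9 per member (3.78), and Tppp3, a tubulin-binding protein, a ratio of 3.14. Parenchymal fibroblast genes were higher in 7 of 11 and lower in 2 (median 1.94), among them lipoprotein lipase (Lpl, 2.64) and Gpc3 (2.62), with Mgp, an inhibitor of calcification, at 1.04. The 2 lower parenchymal genes were Col15a1 and F3. Col15a1 was at 308 CPM in members, 424 CPM in the 98 tendon-like cells that passed the positive rule and 715 CPM in the other 812. F3 was at 6.85, 17.5 and 24.8 CPM. Both lists were thus above the tendon-like level in their medians, but not in every gene.

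Secreted signals and growth genes were also compared by family. Chemokines, cytokines and their receptors were higher in 15 of 21 measured genes and lower in 1 (38 listed, median 1.76), with Cxcl14 at 1.98, Ccl7 at 2.65 and Cxcl1 at 1.54. Complement genes were higher in 5 of 7 and lower in 2 (median 2.77), led by the C1 inhibitor Serping1, at 545 against 42.5 CPM (3.68) and found in 50 members, and by the protease C1s1 (3.72). Imprinted growth genes were higher in 8 of 12 and lower in 0 (median 1.58). H19, a noncoding RNA of the Igf2 locus, had a median of 10 UMIs per member and 0 per tendon-like cell (2.96), and Dlk1, an inhibitor of adipogenesis, 7 and 0 (3.39). Meg3, from the Dlk1 locus, was at 5214 against 2337 CPM (1.16). The IGF axis had 7 of 12 higher and 2 lower (median 1.61). TGF-beta and BMP genes were balanced at 9 higher and 8 lower of 28 (median 0.03), with Fstl1, a follistatin-like secreted protein, at 2.38 and the receptor Tgfbr2 at 2.03. Wnt genes had 11 of 23 higher and 7 lower (median 0.41), with the inhibitor Dkk2 at 3.87.

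Among 39 measured mesenchymal transcription factors, 17 were higher and 9 lower (median 0.53). Ebf1, an early B-cell factor also used by mesenchymal cells, was found in 54 members with a median of 4 UMIs and in 16.2% of tendon-like cells (574 against 49.1 CPM, log2 ratio 3.55). Ebf2, chosen after its values were seen, was found in 37 members and 6.15% of tendon-like cells (3.73). Of the 39 Hox genes listed, 12 were measured against tendon-like cells, with 0 higher and 6 lower (median -0.98). Against chondrocytes 27 were measured, with 5 higher and 3 lower (median 0.12). Hoxc10 had the most UMIs in members, 37, at 63.4 CPM against 53.3 CPM in tendon-like cells and 36.7 CPM in chondrocytes.

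Glycolysis and hypoxia genes were lower in 13 of 19 and higher in 1 (median -1.36). Pkm, pyruvate kinase, was at 242 against 1610 CPM (-2.74), Ldha at -1.53 and Gapdh at -0.67. Immediate early genes, which respond to dissociation, were higher in 13 of 24 and lower in 1 (median 1.07), with Jun at 1.54, Fos at 1.32 and the metallothionein Mt1 at 2.43. Their part in the other differences was not tested. Cell cycle genes had 2 of 17 higher and 2 lower (median 0.36), and their summed level was 493 CPM in members and 358 CPM in tendon-like cells. Contractile genes had 6 of 14 higher and 3 lower (median 0.11). Tagln itself had 5 UMIs in 4 members (8.56 CPM, against 8.68 in tendon-like cells and 1180 in mural cells), and Acta2, smooth muscle actin, 13 UMIs in 5 members (22.3 CPM, against 4368 in mural cells).

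Against the 4524 P10 chondrocytes, members were at least 2-fold higher in 3972 of 11878 genes (33.4%) and lower in 1240 (10.4%). The median log2 ratio was 0.51, and with it set to 0, 2367 genes were higher and 2238 lower. Cartilage matrix genes were lower in 17 of 18 and higher in 0 (median -5.80), with Col2a1 at -6.72, Acan, aggrecan, at -7.17 and Ucma at -6.96. Since the members' Col2a1 was below the level in blood cells, these ratios set a background level against the chondrocytes' own. The chondrocytes held 101031691 UMIs, so a gene could reach the limit of 100 UMIs through them alone. Adventitial fibroblast genes were higher in 17 of 21 (median 4.03) and basement membrane genes in 11 of 14 with 0 lower (median 3.62). Tnxb was at 971 against 1.15 CPM (9.72, interval 9.43 to 10.0), Thy1, a surface glycoprotein, at 9.78 and Igfbp6 at 9.34. Collagens were higher in 10 of 16, with Col3a1 at 6.92 and Col1a1 at 3.70. Imprinted growth genes had 4 of 14 higher and 2 lower (median 0.04), and H19 was at 2447 in members and 2014 CPM in chondrocytes (0.28). Glycolysis genes were lower in 12 of 19 (median -1.79).

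Within the members, Pi16 and Dpp4 split the cells. Cells with 3 or more UMIs of both genes summed numbered 22 (median 10143 UMIs per cell), cells with 0 numbered 19 (median 9319 UMIs), and 16 lay between. Over 1204 genes whose UMIs added over both sets reached 50, 125 were at least 2-fold higher in the positive cells (10.4%) and 86 lower (7.14%), with a median log2 ratio of 0.02. The 2 genes chose the cells, so the contrast is a description.

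Adventitial fibroblast genes were higher in 12 of 13 measured genes and lower in 0 (median 2.80). Igfbp6 had 3, 25.5 and 226 UMIs per positive cell (lowest, median, highest) and 0, 1 and 37 per negative cell, or 3675 against 337 CPM (log2 ratio 3.45, interval 3.08 to 3.84). Fbn1 had 3, 51.5 and 131 per positive cell and 0, 4 and 17 per negative cell (3.17, interval 2.86 to 3.50). Sema3c, a secreted guidance factor, had 1, 10 and 21 against 0, 0 and 3 (4.07, interval 3.20 to 5.09), so the groups overlapped only at the low end. Anxa3, a calcium-dependent membrane-binding protein, had 120 UMIs in 16 positive cells and 2 UMIs in 2 negative cells (5.53, interval 3.64 to 8.59). Cd55, which blocks complement on the cell surface, had 105 against 4 UMIs (4.33), Scara5, a ferritin receptor, 126 against 7 (3.79), and Pcolce2, a procollagen protease enhancer, 49 against 1 (5.23). Mustn1 and Heg1 were at 5.64 and 4.28. Myoc (658 against 54 UMIs, 3.23), Dmkn (89 against 0, at least 22.8-fold higher) and the neutrophil chemokine Cxcl2 (259 against 1, 7.64) were also higher, but rested on few cells. Cxcl2 was found in 9 of the 57 members, with 97.4% of its UMIs in 5 cells, and blood cells held 18269 CPM of it.

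Negative cells were higher in another set. Parenchymal fibroblast genes were lower in positive cells in 6 of 8 measured genes and higher in 0 (median -1.28). Mgp had 5, 34 and 75 UMIs per negative cell and 0, 1.5 and 68 per positive cell (log2 ratio -2.34, interval -2.58 to -2.10). Dlk1 had a median of 21 UMIs per negative cell and 0 per positive cell (-2.33), Mfap4, an elastic fibre protein, 4 and 0 (-2.70), and Igfbp3 4 and 0 (-2.84). Cxcl12, the ligand of Cxcr4, was found in 18 of 19 negative and 3 of 22 positive cells (-2.74). Il11ra1, the interleukin 11 receptor, was at -2.53 and the Wnt inhibitor Dkk2 at -2.88. Rrad, a small GTPase, had the lowest ratio (-5.37), with 190 UMIs in 8 of the negative cells and at most 83 in a cell. Lgals3, Apoe, Ptx3 and Hspb1 lay between -2.97 and -2.61, but 46 of the 75 UMIs of Hspb1 in negative cells lay in 1 cell, as did 30 of 54 of Ptx3 and 28 of 59 of Apoe. Lgals3 was found in 12 of the 19 negative cells with at most 23 UMIs. Imprinted growth genes were lower in 5 of 10 and higher in 0 (median -1.06). Col1a1 was level at -0.03 (interval -0.11 to 0.04), and Col3a1 was at 0.46. With the limit on Tnmd alone, which adds the cells removed by Thbs4, 336 genes were higher in positive cells in place of 125.

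Start regions of 4 genes are shown: Pi16 and Dpp4, which chose the positive cells, and Igfbp6 and Myoc, which were higher in them. Myoc rested on few cells. In the sub-clusters described below, Pi16 and Dpp4 were highest in the first, and Igfbp6 and Myoc in the third. Each runs from 250 bases before to 50 after the RefSeq start on GRCm38.p6, 5′ to 3′ on the gene's strand, and capitals mark a TATA box motif (TATAAA, or its reverse complement TTTATA). RefSeq entries were found for 5 of the 9 genes of the positive rule. Pi16 lies on chr17:29318632-29318931 of the plus strand and Dpp4 on chr2:62412182-62412481 of the minus strand. Igfbp6 lies on chr15:102143936-102144235 and Myoc on chr1:162638900-162639199, both on the plus strand.
Pi16: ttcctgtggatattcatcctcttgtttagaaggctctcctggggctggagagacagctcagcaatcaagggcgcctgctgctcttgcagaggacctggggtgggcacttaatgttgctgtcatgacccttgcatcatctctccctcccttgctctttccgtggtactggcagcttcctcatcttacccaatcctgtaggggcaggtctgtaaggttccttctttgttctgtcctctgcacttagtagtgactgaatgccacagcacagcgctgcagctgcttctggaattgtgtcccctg
Dpp4: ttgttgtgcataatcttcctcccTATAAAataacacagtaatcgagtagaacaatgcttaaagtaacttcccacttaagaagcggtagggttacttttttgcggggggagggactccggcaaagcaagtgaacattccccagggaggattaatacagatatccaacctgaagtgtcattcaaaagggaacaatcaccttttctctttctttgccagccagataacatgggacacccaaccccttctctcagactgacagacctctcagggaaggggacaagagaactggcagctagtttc
Igfbp6: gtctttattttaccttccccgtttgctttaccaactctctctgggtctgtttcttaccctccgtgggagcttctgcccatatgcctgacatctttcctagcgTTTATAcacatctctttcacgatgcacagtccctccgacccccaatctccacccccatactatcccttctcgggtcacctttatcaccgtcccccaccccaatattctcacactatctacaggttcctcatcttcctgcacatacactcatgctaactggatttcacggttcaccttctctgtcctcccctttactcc
Myoc: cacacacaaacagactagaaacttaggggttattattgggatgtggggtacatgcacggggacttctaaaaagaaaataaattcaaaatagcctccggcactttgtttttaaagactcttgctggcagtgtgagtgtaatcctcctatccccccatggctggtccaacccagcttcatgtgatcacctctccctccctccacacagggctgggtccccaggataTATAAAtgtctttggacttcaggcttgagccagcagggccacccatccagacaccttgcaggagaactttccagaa
The motif, searched on both strands, was in the windows of Dpp4, Igfbp6 and Myoc and not in that of Pi16, and 4473 of 32851 RefSeq start windows of the same length held it (13.6%). In Igfbp6 it lies on the reverse strand. A match is a description of these letters and not a measured site.

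Clustering of the 57 members alone, with settings chosen after the cells were seen, gave 4 sub-clusters of 18, 18, 13 and 8 cells. Their genes were used to form them, so the values describe the clusters. The first, with a median of 11022 UMIs per cell, held 820 of the 920 UMIs of Pi16 (1, 48 and 113 per cell) and 16 of the 22 positive cells. Its leading genes besides the rule's were Anxa3 (661 CPM), Tek, Fbn1 (5410 CPM), Pcolce2, Adgrd1 and Ackr3. All but 2 UMIs of Tek lay in it, in 11 cells, while Pecam1, Kdr and Tie1 were at 0. The second (median 10483 UMIs) held 10 of the 19 negative cells and was led by Gbp2, Serpine2, Stmn1, Itga6, Col18a1, Col12a1, Ifitm1 and Peg3, with log2 ratios between 1.65 and 4.29. Stmn1 rested on 39 UMIs in 5 cells and Gbp2 on 27 UMIs in 4 cells. A single cell held 38 of the 52 UMIs of Itga6 in this sub-cluster, and a single cell 34 of the 62 of Col12a1. Serpine2, Col18a1 and Peg3 were spread more widely, in 13, 14 and 15 of its 18 cells. All 19 UMIs of Top2a, a gene of dividing cells, lay in 2 members. The third (median 9319 UMIs) had Myoc at 5262 CPM in 12 of 13 cells, with Krtdap in 10 cells, Nbl1, Rgcc, Crabp2, Cxcl2, Dmkn and Sfrp4. In this sub-cluster Dmkn and Sfrp4 lay in 3 cells each, Cxcl2 and Crabp2 in 5 each and Rgcc in 6. The highest cell of each gene held 198 of the 260 UMIs of Cxcl2, 70 of 90 of Dmkn and 28 of 44 of Sfrp4. For Rgcc it held 27 of 44, for Crabp2 19 of 33 and for Nbl1, found in 12 cells, 90 of 224. The fourth (8 cells, median 9023.5 UMIs) held 7 negative cells and had among its leading genes Rrad (2255 CPM, 5 cells), Ptx3, Lrrc17, Socs1, Lgals3, Ntrk2 and Il11ra1, the last 3 of them in all 8 cells. Dlk1 was at 3240 CPM in this sub-cluster, Cxcl12 at 752 CPM and Lpl at 1231 CPM. Over 8 clustering settings the members fell into 3 to 5 sub-clusters. The Pi16-high group kept 17 or 18 of its 18 cells together and the Myoc-high group 11 to 13 of 13, while the second kept 8 to 18 of 18 and the fourth 6 to 8 of 8.

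**Figure D3:**
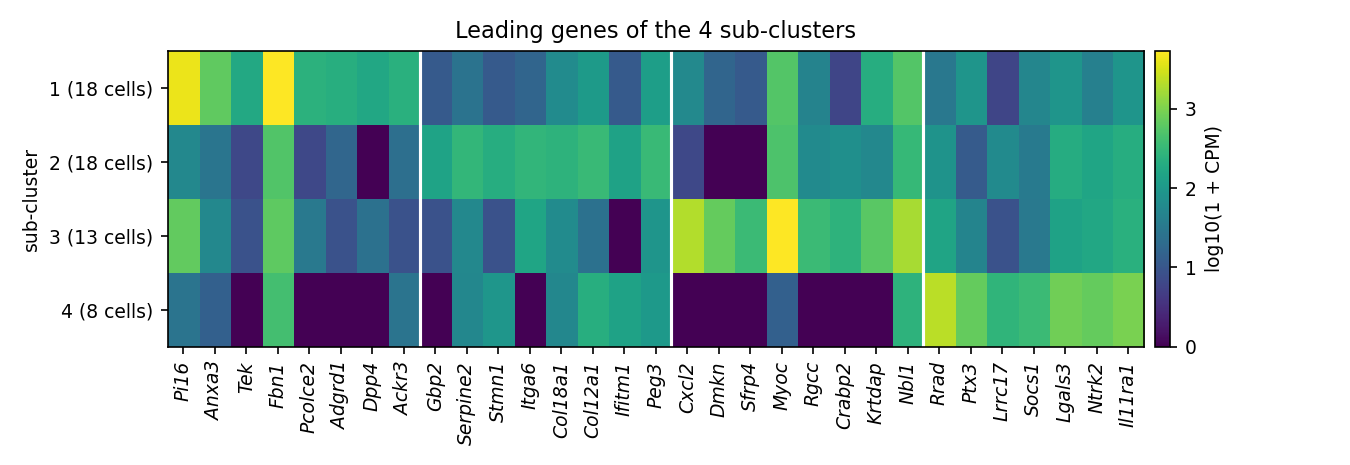
Summed levels, as log10 of 1 plus CPM, of leading genes of each sub-cluster (columns, in blocks of 8, and of 7 for the fourth) in the 4 sub-clusters (rows, with cell numbers). Pi16 at 4201 CPM and Fbn1 mark the first row, Myoc at 5262 CPM the third and Rrad at 2255 CPM the fourth, while no gene of the second block exceeds 337 CPM in the second row.

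The lineage label was read from WPRE4, a 3′ element often carried by reporter transcripts, because the tdTomato sequence itself (TDT) was sparse. The exact reporter allele is not given in the sources used here. TDT had 0 UMIs in the members, which allows up to 5.14 CPM at 3 counts. WPRE4 had 23 UMIs in 15 of 57 members (26.3%), with at most 4 in a cell, or 39.4 CPM (interval 25.0 to 59.1). No member reached 10 UMIs, 0 of 57, which allows a share of up to 5.26%. The level lay near that of classes with 0 cells at 10 UMIs: 63.9 CPM in blood cells (36.5 to 103.8), with a UMI in 30% of them at a median of 4410 gene UMIs per cell, and 52.6 CPM in Schwann cells. Chondrocytes had 27.7 CPM and tendon-like cells 74.7 CPM. Labelled classes were far higher, with 482 CPM in endothelial cells, 2704.5 CPM in nucleus pulposus cells and 3071 CPM in mural cells. At least 10 UMIs were found in 17.2%, 70.4% and 48.9% of these 3 classes. The members' level is thus at background, and labelled members were not detectable at this depth. With the limit on Tnmd alone the level was 62.4 CPM, close to that of blood cells. At 8 weeks, the 31 cells of the same rule had 87.5 CPM (61.6 to 121) and again 0 cells with 10 UMIs (up to 9.68%), and 8-week blood cells had 51.5 CPM (31.5 to 79.6).

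**Figure D4:**
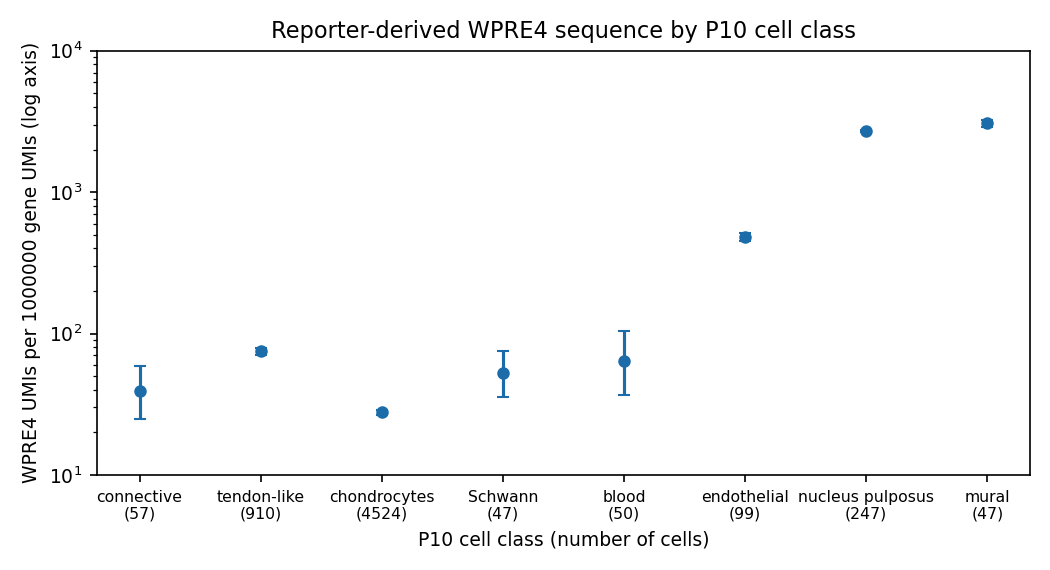
WPRE4 UMIs per 1000000 gene UMIs on a log axis in 8 P10 cell classes, with cell numbers in parentheses and exact 95% Poisson intervals. The 57 members sit at 39.4, within the range of chondrocytes, Schwann cells and blood cells, and below nucleus pulposus cells at 2704.5 and mural cells at 3071.

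At 8 weeks the same rule found 31 of 6481 cells (0.478%, interval 0.325 to 0.678%), with a median of 12274 UMIs. Of 262 cells that passed the positive part, 231 were left out, 223 of them over the tendon limit. Levels of the rule's genes differed although the limits were the same. Pi16 had 2 UMIs in 1 of the 31 cells (4.73 CPM, against 1576 at P10), and Dpp4 had 0, which leaves the Pi16 and Dpp4 split without cells at 8 weeks. Mfap5 was at 239 against 2141 CPM and Col14a1 at 104 against 558 CPM, while Clec3b was at 1412 against 778 CPM and Ly6a at 773 against 1070 CPM. The genes thus made up the sum in different proportions at each age, with Pi16 and Dpp4 nearly absent from it at 8 weeks.

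Over 1439 genes, 204 were at least 2-fold higher at 8 weeks (14.2%) and 206 lower (14.3%), with a median log2 ratio of -0.15. With that median set to 0, 232 were higher and 159 lower, and the share of higher among the called went from 49.8% to 59.3%. Imprinted growth genes were lower in 10 of 10 measured genes (15 listed, median -3.82). Dlk1 had 0, 7 and 91 UMIs per P10 member and 5 UMIs in 1 cell at 8 weeks, or 1572 against 11.8 CPM (log2 ratio -7.06, interval -8.68 to -5.83). H19 had 0, 10 and 124 per P10 member and 12 UMIs in 1 cell at 8 weeks (-6.43, interval -7.39 to -5.62). Cdkn1c, a cell cycle inhibitor, was at -5.66, Mest at -6.39 and Meg3 at -3.29. Tendon-like cells of the same 2 libraries went from 315 to 5.78 CPM of H19, from 150 to 0.189 CPM of Dlk1 and from 2337 to 482 CPM of Meg3.

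Elastic fibre genes were lower in 7 of 12 and higher in 0 (median -1.57), basement membrane genes lower in 6 of 9 and higher in 0 (median -1.20), and parenchymal fibroblast genes lower in 6 of 9 and higher in 1 (median -1.30). Mfap4 had 289 UMIs in 29 members at P10 and 0 at 8 weeks (at least 69.8-fold lower), and Igfbp3 190 UMIs in 30 members and 0 (at least 45.9-fold lower). Mfap2, a microfibril protein, was at -4.57, Nid1 at -3.95, Eln at -3.05 and Lpl at -5.93. The growth factor midkine (Mdk) was at -6.86, and Itm2a, Rrad and Akap12 lay between -6.32 and -4.65. Adventitial fibroblast genes had 2 of 15 higher and 2 lower (median -0.41), with Igfbp6 at -0.52 and Igfbp5 at -0.41. Within this list, Cd248 had 272 UMIs in 48 of 57 P10 members and 52 UMIs in 15 of 31 cells at 8 weeks. Anxa3 had 142 UMIs in 24 members and 13 in 8 cells, and Sema3c 279 in 38 and 134 in 20. Cd55 went the other way, with 131 UMIs in 32 members and 198 in 21 cells. Gsn was at -0.47, Myoc at 0.33 and Tnxb at 0.22. Igfbp6, Igfbp5, Gsn, Myoc and Tnxb were thus present at similar summed levels at both ages. Other genes found in most P10 members were found in fewer cells at 8 weeks. Igf1 was found in 13 of 31 cells, against 53 of 57 at P10. Cygb was found in 10 cells against 48, and Serping1 in 8 against 50.

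Tendon and cartilage genes were higher in the 8-week cells although the limits on them held. Tendon and ligament genes were higher in 8 of 10 and lower in 0 (median 4.11), and cartilage matrix genes in 9 of 10 with 0 lower (median 4.04). Spp1 had at most 1 UMI per P10 member and 0, 4 and 681 per 8-week cell, found in 29 of 31 (6271 against 8.56 CPM, log2 ratio 9.52, interval 8.29 to 11.1). Cilp2 had at most 1 and 0, 5 and 158 (8.56), Fmod 0, 0 and 8 against 0, 8 and 155 (5.20), and Chad a ratio of 7.10. Cytl1, a secreted cytokine-like protein, had 593 UMIs in 11 cells (9.68). Slurp1 and Sbsn, secreted proteins known from epithelia, were found in 23 and 29 of the 31 cells (8.36 and 5.54). Grem1, a BMP antagonist, was at 8.74 and found in 11 cells, Wif1 at 7.85 in 9 cells and F3, tissue factor, at 6.67. The acute phase gene Saa1 had 0 UMIs at P10 and 218 at 8 weeks (at least 100.3-fold higher), in 5 cells, with 159 in 1 of them. All 162 UMIs of Saa2 lay in 1 cell (at least 74.6-fold higher in the sum), and 89 of the 188 UMIs of Angptl7 lay in 1 of its 7 cells (at least 86.5-fold). These folds rest on few cells.

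These levels stood beside those of other classes at 8 weeks. Tendon-like cells held 33920 CPM of Spp1, 6724 CPM of Chad and 5395 CPM of Cilp2, above the members' 6271, 2819 and 1944 CPM. Blood cells of 8 weeks held 579, 15.5 and 7.73 CPM. The 9 chondrocyte markers summed to 13720 CPM in the 8-week cells and 896 CPM in the P10 members, and Col2a1 was at 10722 CPM, against 296 CPM in 8-week blood cells and 40107 CPM in chondrocytes. Col2a1 was uneven, with a lowest value of 0, a median of 2 and a highest value of 925 UMIs per cell and a UMI in 21 of the 31 cells, while the P10 members had a median of 7 and a UMI in all 57. Most 8-week cells were thus far below the summed level. The part of this in the age difference was not tested, and with 31 cells in 1 library the age and the makeup of the set cannot be told apart.

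**Figure D5:**
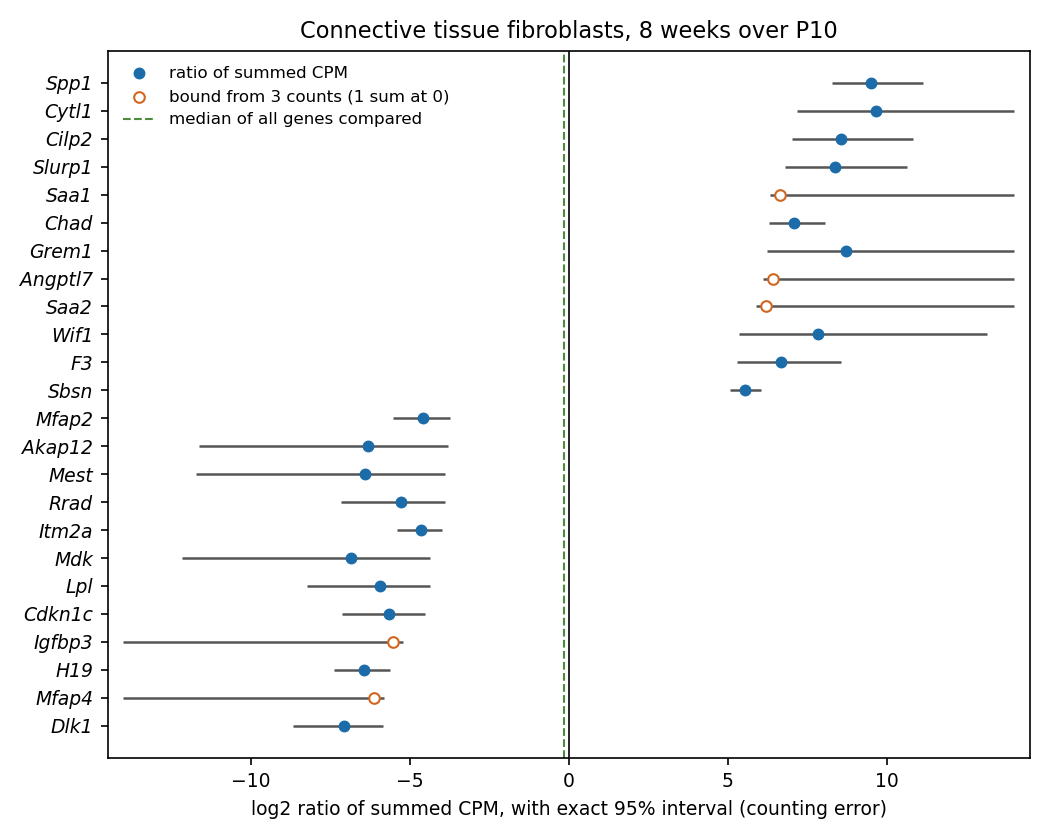
Log2 ratios of summed CPM in the 31 cells of the rule at 8 weeks over the 57 P10 members for the 12 highest and 12 lowest named genes, with exact 95% intervals for counting error, some of which run past the axis. Spp1 lies at 9.52 and Dlk1 at -7.06, open points are bounds from 3 counts, and the dashed line is the median of all genes at -0.15.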

How the data were processed

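Cells of digested whole discs were sequenced on the 10x Chromium platform. The deposited matrices hold raw UMI counts per gene and per exogenous sequence, made by the authors with Cell Ranger 3.1.0, per the file headers, on mm10 (GRCm38), per the submitters' processing notes, which also name Seurat 3 without a role. The 4 samples of an age share 1 matrix. Cells were kept with at least 500 genes, 1000 UMIs and at most 15% mitochondrial UMIs. Doublets were scored with Scrublet in Scanpy 1.11.5 and not removed. Blood, Schwann, mural, endothelial and nucleus pulposus cells were taken by UMI limits on their own markers (for blood, Ptprc together with neutrophil or macrophage genes). UMIs were summed over the cells of a class and scaled to CPM. Ratios needed at least 100 UMIs in both sums together (50 for the Pi16 split), a call meant a 2-fold ratio, and intervals are exact (Poisson, Clopper-Pearson, conditional binomial; scipy 1.17.1). The floor was 3 counts over the group. Cells are not replicates, so no p-value was computed. Scripts were tested on simulated data.

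The members and the gene lists were chosen with earlier results of these data known. Named genes are the 12 highest and 12 lowest of a contrast by the interval bound nearer to 0, leaving out class-rule, predicted, mitochondrial, ribosomal protein, hemoglobin, Xist, Tsix and Y-linked genes, then the 4 genes richest in member UMIs from each list, the rule genes, Tagln, Acta2, WPRE4 and TDT, and 8 leading genes per sub-cluster, 1 of which is not reported here. Markers of other types and Ebf2 were named after their values were seen. Alternatives varied the rule's limits, doublets, cell filters, scaling, UMI minimum, thinning and weighting.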

Additional observations from a re-analysis of the deposited data

How the results depend on the processing

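No paired analysis was possible because each age is 1 matrix without replicate columns, and no replicate could be left out. All 96 named genes of the contrasts kept their direction in 892 of 892 alternative values. They were picked as the most extreme genes of each contrast, so a kept direction was largely set by that choice. A gene has no value in an alternative where it missed the UMI minimum. With the limit on Tnmd alone, the number of cells was 97 (1.39%), WPRE4 was at 62.4 CPM, 336 genes were higher in Pi16 and Dpp4 positive cells and 353 lower at 8 weeks. A minimum of 20 UMIs of the 8 rule genes left 126 genes higher at 8 weeks, and thinning before the Pi16 split left 55 lower. Scaling to the median gene gave 776 higher and 1089 lower over tendon-like cells, and 2367 and 2238 over chondrocytes. A minimum of 30 UMIs gave 2688 higher (tendon-like), 6041 higher (chondrocytes), 547 and 549 (8 weeks) and 228 and 132 (Pi16 split). A minimum of 500 UMIs gave 373 and 320, 2041 higher, 50 and 69, and 11 and 6. Thinning to 2000 UMIs gave 296 and 297, 1566 and 735, 31 and 75, and 30 and 21, since fewer genes then reach the minimum. With intervals clear of 0, 795 genes were lower than in chondrocytes. The doublet limit and the stricter cell filter changed no count by over 1.5 times.

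List medians of at least 1 kept their direction in 557 of 567 values. Over tendon-like cells, Schwann cell markers turned to 0.38 with a minimum of 5 UMIs of the rule genes and 7.08 with Tnmd alone. Over chondrocytes they turned to 2.59, 4.29 and, with a minimum of 30 UMIs, 1.19. A minimum of 500 UMIs turned parenchymal fibroblast genes to -0.058, complement to -1.16 and Wnt genes to -0.20, and thinning turned the last 2 to -1.40 and -0.0045. The cause was not tested. Depth limits what can be said of single members, and genes under 100 UMIs in both sums together (50 for the Pi16 split) were not compared.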
